A study of Mus musculus with 16 samples.

Results

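Ciita and the DNA-binding proteins it works with on MHC class II genes were followed through germinal centre B cells of mice with altered Crebbp. The 7 genes were chosen by name: Ciita, the RFX genes Rfx5, Rfxap and Rfxank, and the NF-Y genes Nfya, Nfyb and Nfyc. All 7 were among the 48593 genes of the count table, and all 7 were among the 16606 genes that passed the filter on low counts. The cells came from spleens of mice given sheep red blood cells, were sorted as B220+ PNA+ CD95+ cells, and their total RNA was sequenced. The titles give 5 groups in 2 cohorts, 16 libraries in all: Crebbp-KO (homozygous; KO, n = 3) with wild type of the same cohort (KO cohort WT, n = 3), and Crebbp-RH/WT (heterozygous; RH HET, n = 4) and Crebbp-RH/RH (homozygous; RH HOMO, n = 3) with their own wild type (RH cohort WT, n = 3). RH is a knock-in allele that the series title writes as an R-to-H change. The title calls both alleles germinal-centre-specific and conditional. The labels do not name the Cre driver or the age of the mice, and the day of collection is 12 in the protocol and 10 in a sample tag. All groups, wild type included, were immunised.

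Class II molecules carry peptides to T helper cells, and germinal centre B cells compete for that help. The promoters of class II genes share an X box and a Y box. The RFX complex, built from the products of Rfx5, Rfxap and Rfxank, binds the X box, CREB family proteins bind the adjoining X2 box, and NF-Y, built from Nfya, Nfyb and Nfyc, binds the Y box, an inverted CCAAT. CIITA does not bind DNA itself: it docks on this assembly, called the enhanceosome, and brings in cofactors that include the acetyltransferase CREBBP. Loss of CIITA or of any RFX subunit in people causes bare lymphocyte syndrome, in which class II molecules are missing.

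Library totals ran from 41362856 to 93040297 counts, so even Rfxap, the lowest member, had 630 or more reads in every library. In a principal component analysis the scores of RH HOMO 2 (77.1) and RH cohort WT 1 (50.7) on the leading axis lay beyond those of the remaining 14 libraries (-40.7 to 24.3). RH cohort WT 1 is titled as an RH library but its batch tag names the KO cohort, whose scores ran from -40.7 to -25.6. Mitochondrial genes held 7.3% and 7.1% of counts in RH cohort WT 1 and 2, against 4.7% in RH cohort WT 3. In the libraries outside RH cohort WT they held 3.4% to 5.8%. The part of this share in the RH comparisons was not tested. In KO, Crebbp was at 123, 137 and 108 CPM, against 131, 127 and 149 CPM in KO cohort WT. CPM are counts relative to the TMM-scaled library total. These counts span the whole gene, whose deleted part is not given, so they do not check the knockout. The germinal centre markers summed to 7861 to 8318 CPM in KO, 7695 to 8025 CPM in RH HET, 6168 to 7605 CPM in RH HOMO, 9051 to 9263 CPM in KO cohort WT and 7770 to 8253 CPM in RH cohort WT. The largest part was Mki67, with means of 3443 CPM in KO and 4116 CPM in KO cohort WT. Of the 10 markers, 3 were higher and 7 lower in KO than in KO cohort WT, with a median log2 change of -0.14.

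The class II binding sites are shown because the RFX and NF-Y subunits act on them and their letters share a layout. RefSeq promoter windows (GRCm38.p6, 250 bases before to 50 bases after a gene's start) were at hand for 8 of 10 class II chain and loading genes. A core of the X box, GNAAC, followed on the gene's strand after 10 to 40 bases by ATTGG, the CCAAT of the Y box read on the other strand, was found for 6 of these 8 genes. By window, 6 of the 9 windows of these genes held the pair, against 2.41% of all 32851 windows, overlapping motifs allowed. The spacing limits were set after the class II windows were seen. Capitals mark the X core, first, and the Y box, second, and each line runs 5′ to 3′ on the gene's strand.
H2-Aa: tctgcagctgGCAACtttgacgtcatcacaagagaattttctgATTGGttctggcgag
H2-Eb1: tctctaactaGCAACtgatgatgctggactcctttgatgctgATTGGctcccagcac
H2-Eb2: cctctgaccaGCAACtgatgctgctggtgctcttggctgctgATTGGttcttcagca
H2-DMb1: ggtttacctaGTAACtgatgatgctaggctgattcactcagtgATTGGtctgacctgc
H2-Oa: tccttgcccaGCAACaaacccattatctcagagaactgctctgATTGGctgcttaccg
H2-Ob: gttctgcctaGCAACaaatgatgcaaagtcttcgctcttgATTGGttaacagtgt

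These stretches lie at chr17:34287857-34287914 (minus strand, H2-Aa) and, on the plus strand, at chr17:34305766-34305822 (H2-Eb1), chr17:34325533-34325589 (H2-Eb2), chr17:34153087-34153144 (H2-DMb1), chr17:34092293-34092350 (H2-Oa) and chr17:34238808-34238862 (H2-Ob). From 25 to 28 bases separate the X core from the Y box, and the X core begins 76 to 132 bases before the start of the gene. The H2-Aa stretch alone of the 6 also holds TGACGTCA, the full CREB site, between the X core and the Y box. CCAAT on either strand was in 8 of the 9 class II windows, the exception being 1 of the windows of H2-DMa, against 37.4% of all windows. Of the 7 members 5 had a window, 9 windows in all, of which 0 held the X and Y pair and 5 held CCAAT, these being windows of Rfx5, Rfxank, Nfya and Nfyc.

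The members were at different levels, and Ciita was the highest per length in each library. As CPM per kilobase of exon (RPKM), the median over the 16 libraries was 51.8 for Ciita, 25.7 for Rfx5, 25.3 for Nfyc, 15.0 for Nfya, 14.0 for Rfxank, 12.8 for Nfyb and 7.24 for Rfxap. Ciita ranged from 35.0 to 62.0 RPKM and its lowest library lay above the highest of Rfx5, 30.6 RPKM. Rfxap ranged from 4.67 to 9.20 RPKM and lay below the other 6 members in each library. Neighbours in the order did not always separate: Rfx5 exceeded Nfyc in 8 of 16 libraries, Nfya exceeded Rfxank in 9 and Rfxank exceeded Nfyb in 11. Nfyb was the steadiest member, with a highest library 1.24 times its lowest. The target genes were far above, with medians of 405 RPKM for H2-Aa, 799 RPKM for H2-Eb1, 798 RPKM for H2-Ab1 and 3980.5 RPKM for Cd74, the invariant chain gene.

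**Figure D1:**
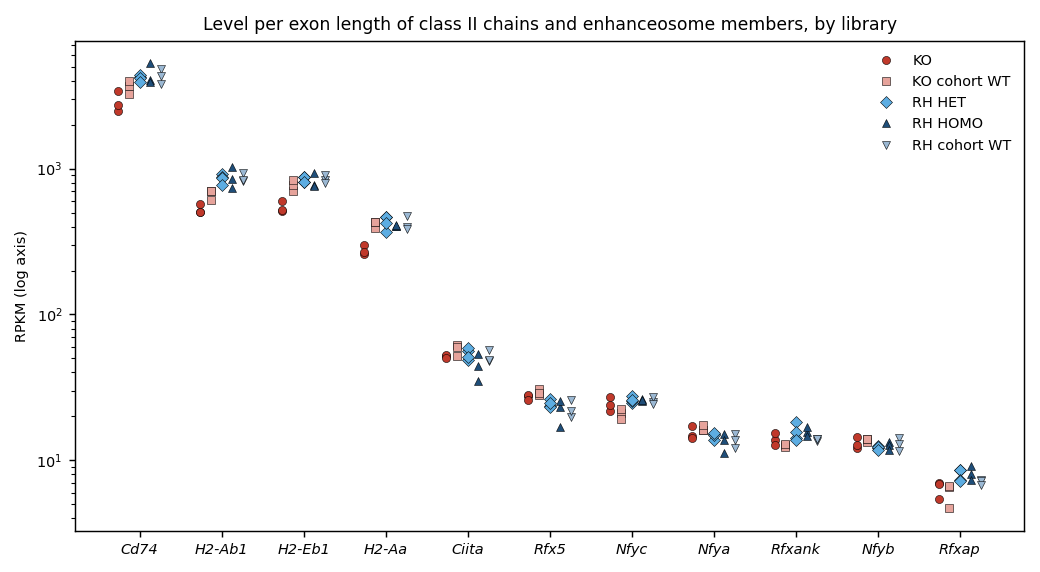
Level per kilobase of exon (RPKM, log axis) of 4 class II chain genes and the 7 members, with 1 point per library and 5 title groups. Ciita stands between the class II chains, whose medians run from 405 RPKM upwards, and Rfxap at the bottom with a median of 7.24 RPKM.

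In KO cells, no change in the 7 regulators passed the test, while the class II chain genes H2-Aa and H2-Eb1 fell. Relative to wild type of its cohort, each genotype was tested by edgeR's quasi-likelihood test on all 16 libraries, with Benjamini-Hochberg adjustment over 16606 genes. Genes are called at adjusted p below 0.05. In KO, 0 of 7 members were called, against 1.30% of all genes tested. At an unadjusted p under 0.05 there was 1 of 7, Nfyc, against 12.1% of all genes, and DESeq2 also called 0. Members' groups were free of overlap for 0 of 7 in KO, against 25.4% of all genes. Their adjusted p-values ran from 0.337 to 0.871, with 3 of 7 log2 changes positive and a median of -0.08, against -0.002 for all genes.

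In the RH cohort, no change in the 7 genes passed the test in heterozygous or homozygous cells. RH HET had 0 of 7 called by edgeR and by DESeq2, against 0.0181% of all genes by edgeR. At an unadjusted p under 0.05 there were 0 of 7, against 7.18% of all genes, and 0 of 7 were free of overlap, against 6.49%. Of the log2 changes, 6 of 7 were positive, with a median of 0.11 and adjusted p-values from 0.760 to 0.959, and the median over all genes was -0.007. RH HOMO had 0 of 7 called by edgeR and by DESeq2, against 1.57% of all genes, and 0 of 7 at an unadjusted p under 0.05, against 12.9%. There, 1 of 7 members, Rfxank, was free of overlap, against 15.4% of all genes. The median change was -0.03, against 0.02 for all genes, and adjusted p-values ran from 0.534 to 0.948. A change missed by these tests is bounded by the 95% intervals given with each gene.

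**Figure D2:**
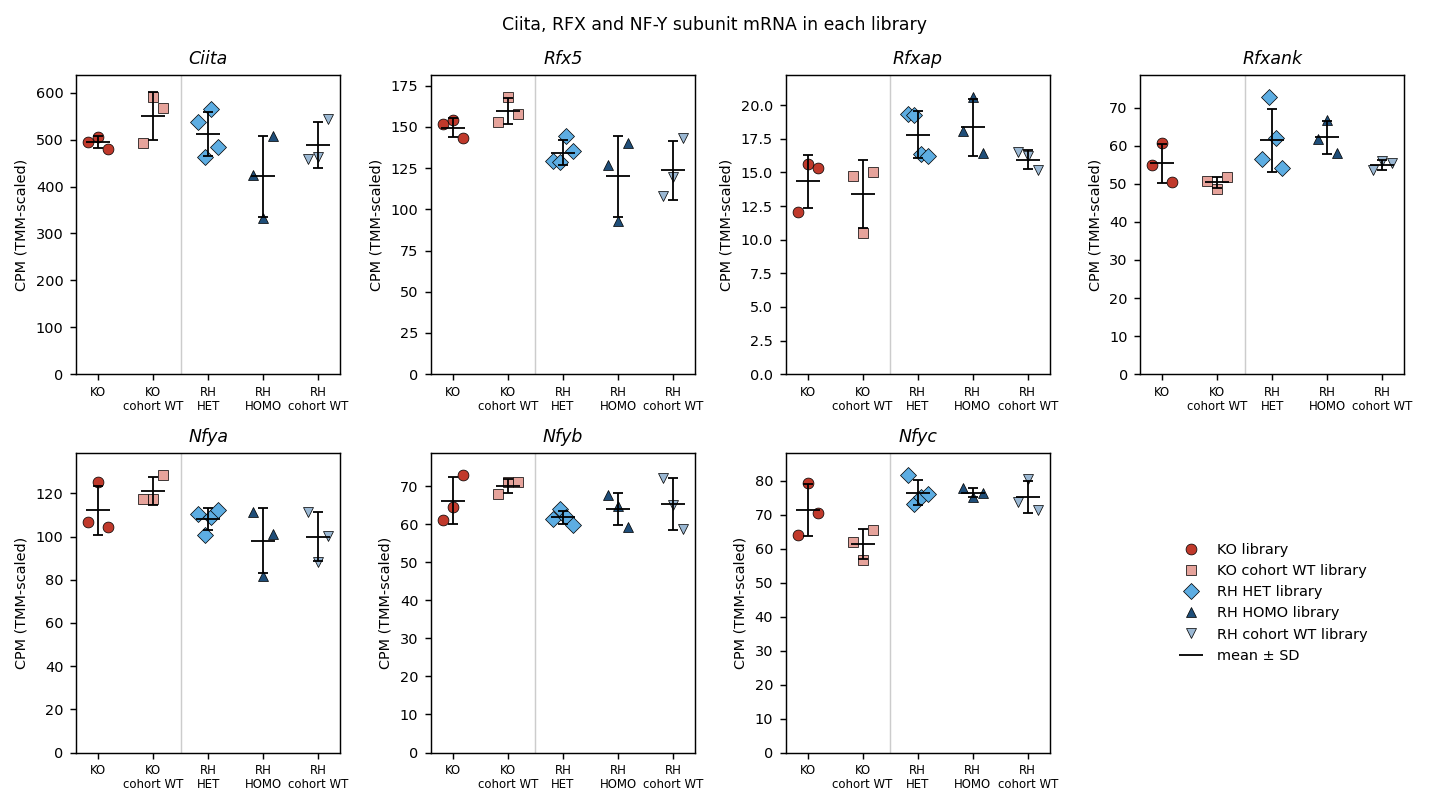
TMM-scaled CPM of the 7 members, with 1 point per library and bars for mean ± SD, in KO (n = 3), KO cohort WT (n = 3), RH HET (n = 4), RH HOMO (n = 3) and RH cohort WT (n = 3). Points of each genotype mix with those of its wild type, except Rfxank in RH HOMO, and RH HOMO 2 is lowest for Ciita, Rfx5 and Nfya.

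Ciita (ENSMUSG00000022504.10) lies on the plus strand of chromosome 16, from 10480059 to 10528418 on GRCm38, and encodes the master coactivator. It had 495, 506 and 481 CPM in KO, against 492, 591 and 567 CPM in KO cohort WT. KO libraries lay close together and within or just below the wild type range. The means were 494 ± 12.6 CPM in KO and 550.2 ± 51.6 CPM in KO cohort WT (SD, n = 3 each). The log2 change was -0.16 ± 0.13 (SE), with a 95% interval of -0.43 to 0.12, that is 0.743 to 1.09 times wild type (edgeR, adjusted p = 0.724).

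In the RH cohort Ciita had 536, 463, 564 and 483 CPM in RH HET, and 425, 334 and 507 CPM in RH HOMO, against 458, 463 and 544 CPM in RH cohort WT. RH HET libraries spread around the wild type ones, and RH HOMO held the lowest library of all, RH HOMO 2. The log2 change was 0.07 ± 0.12 in RH HET (95% interval -0.19 to 0.32, edgeR adjusted p = 0.911). In RH HOMO it was -0.21 ± 0.13 (95% interval -0.48 to 0.06, edgeR adjusted p = 0.546). Leaving out 1 library at a time moved the RH HOMO value between -0.37 and -0.07, the weakest being without RH HOMO 2, and Ciita was not called in any of these fits. Ciita has several promoters, and a count per gene cannot tell their transcripts apart.

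Rfx5 encodes the DNA-binding subunit of the RFX complex and lies on chromosome 3, from 94954075 to 94961561. It had 152, 154 and 143 CPM in KO, against 153, 168 and 158 CPM in KO cohort WT. In the other cohort it had 129, 128, 144 and 136 CPM in RH HET, and 127, 92.9 and 140.1 CPM in RH HOMO, against 108, 119 and 143 CPM in RH cohort WT. The genotypes overlapped with their wild type throughout, and RH HOMO 2 was the lowest library. Rfx5 shares exonic bases with B230398E01Rik on the opposite strand, which was not analysed here. Log2 changes were -0.10 ± 0.13 in KO, 0.12 ± 0.12 in RH HET and -0.04 ± 0.13 in RH HOMO (SE, edgeR adjusted p = 0.853, 0.834 and 0.927).

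Rfxap, on chromosome 3 from 54803115 to 54807791, encodes the RFX-associated protein, the lowest of the 7 by level. It had 12.1, 15.6 and 15.3 CPM in KO, against 14.7, 10.5 and 15.0 CPM in KO cohort WT. It had 19.3, 19.3, 16.4 and 16.2 CPM in RH HET, and 18.1, 20.6 and 16.4 CPM in RH HOMO, against 16.5, 16.2 and 15.2 CPM in RH cohort WT. The higher RH HET and RH HOMO libraries lay above the wild type ones and the lower ones among them. The log2 change was 0.10 ± 0.15 in KO, 0.16 ± 0.14 in RH HET and 0.20 ± 0.15 in RH HOMO, where the 95% interval was -0.11 to 0.51 (SE, edgeR adjusted p = 0.871, 0.817 and 0.618).

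Rfxank, on chromosome 8 from 70130794 to 70139154, encodes the ankyrin repeat subunit. It had 54.9, 60.8 and 50.6 CPM in KO, against 50.7, 48.7 and 51.7 CPM in KO cohort WT. It had 56.5, 72.9, 61.9 and 54.3 CPM in RH HET, and 61.8, 66.7 and 58.0 CPM in RH HOMO, against 53.5, 55.9 and 55.5 CPM in RH cohort WT. All 3 RH HOMO libraries were above all 3 wild type libraries, by a small margin at the nearest pair. The log2 change was 0.14 ± 0.11 in KO, 0.16 ± 0.10 in RH HET and 0.18 ± 0.11 in RH HOMO, where the 95% interval was -0.05 to 0.40 (SE, edgeR adjusted p = 0.700, 0.760 and 0.534). Rfxank shares exonic bases with Nr2c2ap on the opposite strand, whose counts were 39.7% to 57.6% of those of Rfxank, and the kit used does not mark strand.

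Nfya, on chromosome 17 from 48386885 to 48409906, encodes the NF-Y subunit that reads the CCAAT letters. It had 107, 125 and 104 CPM in KO, against 117, 118 and 129 CPM in KO cohort WT. It had 111, 101, 109 and 113 CPM in RH HET, and 111, 81.7 and 101 CPM in RH HOMO, against 111, 88.4 and 100.2 CPM in RH cohort WT. In KO, 2 of 3 libraries lay below wild type and 1 among them. Log2 changes were -0.11 ± 0.11 in KO, 0.11 ± 0.11 in RH HET and -0.03 ± 0.11 in RH HOMO (SE, edgeR adjusted p = 0.781, 0.827 and 0.948).

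Nfyb and Nfyc encode the histone-fold subunits of NF-Y. Nfyb, on chromosome 10 from 82748701 to 82764144, had 61.1, 64.6 and 72.9 CPM in KO, against 67.9, 71.1 and 71.1 CPM in KO cohort WT. It had 59.8 to 63.9 CPM in RH HET and 59.4 to 67.7 CPM in RH HOMO, against 58.7 to 72.2 CPM in RH cohort WT. Groups overlapped in each comparison, with log2 changes of -0.08 ± 0.09 in KO, -0.08 ± 0.09 in RH HET and -0.03 ± 0.09 in RH HOMO (SE, edgeR adjusted p = 0.821, 0.851 and 0.930).

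Nfyc, on chromosome 4 from 120757438 to 120831572, had the lowest p of the 7 in KO, where 12.1% of all genes had an unadjusted p under 0.05. It had 64.1, 79.4 and 70.6 CPM in KO, against 61.9, 56.7 and 65.6 CPM in KO cohort WT, so that KO 1 lay inside the wild type range and the other KO libraries above it. The log2 change was 0.22 ± 0.09 (SE), with a 95% interval of 0.02 to 0.41 and an unadjusted p of 0.0313 (edgeR, adjusted p = 0.337). Nfyc had 73.1 to 81.7 CPM in RH HET and 75.2 to 77.8 CPM in RH HOMO, against 71.5 to 80.5 CPM in RH cohort WT. These log2 changes were 0.02 ± 0.09 in RH HET and 0.02 ± 0.09 in RH HOMO (SE, edgeR adjusted p = 0.959 and 0.944).

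Whether homozygous RH and the knockout acted unequally on the members was tested by subtracting the KO effect from that in RH HOMO. Again 0 of 7 were called by edgeR and by DESeq2, with 0 of 7 at an unadjusted p under 0.05, against 0.241% of all genes called and 9.53% at that p. The differences ran from -0.19 ± 0.13 for Nfyc to 0.11 ± 0.21 for Rfxap (SE, log2), and that of Ciita was -0.06 ± 0.18, with a 95% interval of -0.44 to 0.33.

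Targets of the enhanceosome fell in KO, a result already known when the genes were listed. Of 10 tested class II chain and loading genes, 5 fell and 0 rose, against 0.729% of all genes that fell and 0.572% that rose: H2-Aa, H2-Eb1, H2-DMa, H2-DMb2 and H2-Oa. All 10 were negative, with a median of -0.47. The 5 calls became 0 when any 1 of KO 1, KO 3, KO cohort WT 2 and KO cohort WT 3 was left out, although H2-Aa stayed between -0.67 and -0.56, and DESeq2 called 7. H2-Aa, an alpha chain gene, had 979, 1141 and 1014 CPM in KO, against 1498, 1645 and 1648 CPM in KO cohort WT. Its log2 change was -0.61 ± 0.11 (SE), with a 95% interval of -0.84 to -0.38 (edgeR adjusted p = 0.0108), so that interval overlapped that of Ciita (-0.43 to 0.12) by a narrow margin. H2-Eb1 changed by -0.50 ± 0.11 (edgeR adjusted p = 0.0260), whereas H2-Ab1 (-0.36 ± 0.12) and Cd74 (-0.34 ± 0.14) were not called (edgeR adjusted p = 0.171 and 0.298). In RH HET and RH HOMO, 0 of the 10 were called by edgeR or DESeq2, 0 had an unadjusted p under 0.05, and the medians were 0.01 and -0.04. The effect in RH HOMO minus that in KO had a median of 0.38, with 0 of 10 called by edgeR and 1, H2-Aa, called by DESeq2. At an unadjusted p under 0.05 there were 6 of 10, against 9.53% of all genes. Of 8 dendritic cell markers, 5 were tested and 1, Flt3, fell in KO (-0.51 ± 0.12 SE, edgeR adjusted p = 0.0473, not called without any 1 of the 6 libraries), while Xcr1 was positive and the other 3 negative without a call. The 8 genes summed to 35.3 to 39.1 CPM in KO, against 47.0 to 58.0 CPM in KO cohort WT. Nearly all of that sum was Flt3 itself, at 36.1, 38.5 and 34.2 CPM in KO, against 56.5, 52.7 and 45.3 CPM in KO cohort WT. The cells had been sorted as B220+ PNA+ CD95+ after B cell isolation. Batf3 was at 0 in KO, and Batf3 and Siglech in KO cohort WT. The part of these cells in the class II result was not tested, and in bulk RNA fewer cells of a type and less RNA per cell cannot be told apart.

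**Figure D3:**
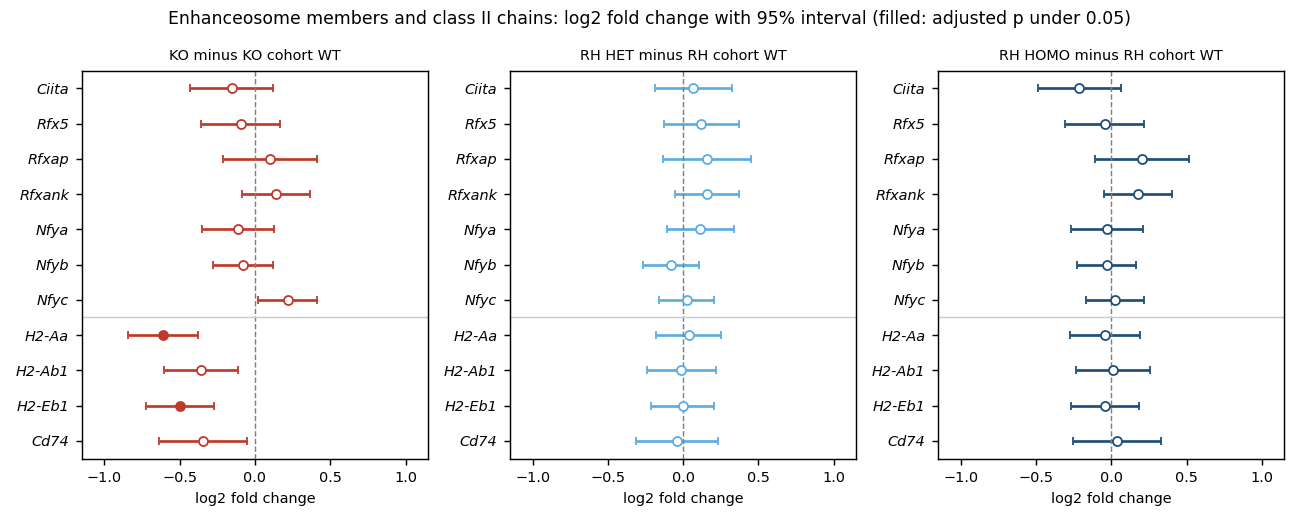
Log2 fold changes with 95% intervals of the 7 members (above the line) and 4 class II chain genes (below it) in KO, RH HET and RH HOMO, each minus its own wild type. Filled points have an adjusted p under 0.05: these are H2-Aa and H2-Eb1 in KO, and 0 of the members in any panel.

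The ratio of class II to Ciita mRNA within a library does not depend on scaling between libraries. It was taken as the mean log2 count of H2-Aa, H2-Ab1, H2-Eb1 and Cd74 minus the log2 count of Ciita, a measure added after the data were seen. It was 1.61, 1.85 and 1.70 in KO, against 2.05, 1.95 and 2.08 in KO cohort WT. The 3 KO libraries were all below the 3 wild type libraries, a difference of -0.30 (log2), or 0.810 times the wild type ratio. The exact permutation test, 2-sided, gave p = 0.1, the smallest it allows for 3 against 3. In RH HET the ratio was 2.31 ± 0.08 (SD, n = 4), and in RH HOMO it was 2.60 ± 0.46 (SD, n = 3), against 2.38 ± 0.12 in RH cohort WT (SD, n = 3). These groups overlapped, with exact permutation p = 0.371 for RH HET and p = 0.7 for RH HOMO, and RH HOMO 2 had the highest ratio of all libraries, 3.09.

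No correlation between Ciita and the class II chains passed a permutation test, in either cohort or over all 16 libraries. Permutations over both cohorts moved libraries freely between them. The cohorts lay apart on the leading axis (-40.7 to -25.6 in the KO cohort, -5.78 to 77.1 in the RH cohort), so those p-values do not allow for cohort. Over all 16 libraries, Pearson's r between log2 CPM of Ciita and the mean log2 CPM of the 4 chains was -0.15 (permutation p = 0.57) and Spearman's rho was -0.16 (permutation p = 0.539), 1 relation being tested. Without the libraries farthest from the median of Ciita, RH HOMO 2 and KO cohort WT 2, r was 0.15 over 14 libraries (permutation p = 0.6). As deviations from group means, r was -0.07 and rho was 0.14 (permutation within groups, p = 0.879 and 0.689). Within the RH cohort r was -0.25 over 10 libraries (permutation p = 0.507) and rho was -0.02 (p = 0.972 by permutation). Within the KO cohort r was 0.83 over 6 libraries (exact permutation p = 0.0625) and rho was 0.66 (exact permutation p = 0.175), where the 2 genotypes do not overlap in class II level.

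**Figure D4:**
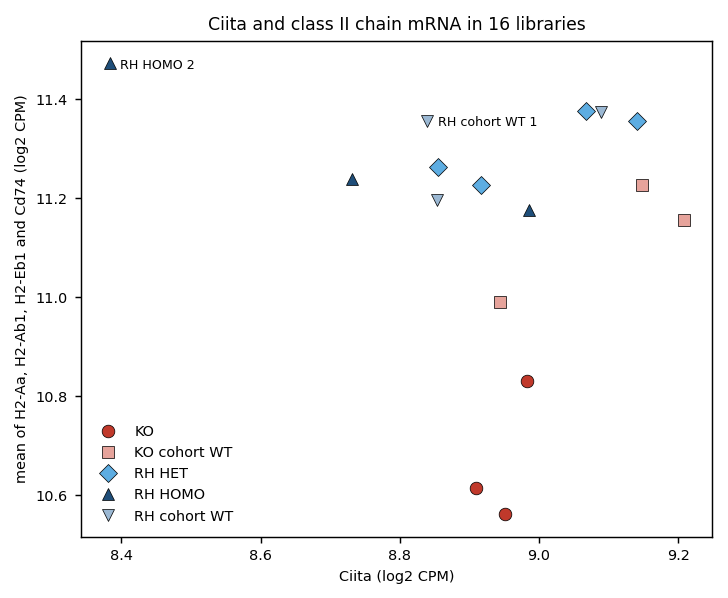
Ciita (log2 CPM) against the mean log2 CPM of H2-Aa, H2-Ab1, H2-Eb1 and Cd74, with 1 point per library and 5 title groups. KO libraries are lowest on the class II axis but in the middle of the Ciita axis, and RH HOMO 2 joins the lowest Ciita level with the highest class II level.

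Genes whose profile over the 16 libraries was most like that of Ciita were ranked by Pearson's r of log2 CPM among 9417 genes, as a description. The highest were Nfatc1, a transcription factor of calcium signalling (r = 0.95), the kinase gene Lats2 (0.93), Mbtd1 (0.93), Pik3r4 (0.93) and Ncoa3 (0.93), a nuclear receptor coactivator gene. Rfx5 ranked 212 with r = 0.84, and Nfya had r = 0.66. Rfxap (-0.60) and Rfxank (-0.51) ran the other way. Without RH HOMO 2 and RH cohort WT 1, Ciita and Rfx5 had r = 0.68 over 14 libraries, and Ciita and Nfatc1 had r = 0.88. Genes most like Rfx5 included Nfat5, Mlxip, Scai and Nbeal1, with r from 0.96 to 0.97. All these values share libraries and depth, and RH HOMO 2 had the lowest level of Ciita, Rfx5 and Nfya and the highest of Rfxap.

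Upstream of Ciita, 1 gene of the interferon gamma route was called in KO and 1 in RH HOMO. Of 20 genes for signals and factors known to act at Ciita promoters, 1 fell and 0 rose in KO, against 0.729% and 0.572% of all genes. It was Ifngr1, a chain of the interferon gamma receptor, with 45.8, 54.1 and 50.2 CPM in KO, against 65.6, 72.4 and 70.6 CPM in KO cohort WT. Its log2 change was -0.48 ± 0.10 (SE, edgeR adjusted p = 0.0216), with adjusted p-values up to 0.140 without 1 library, the call being kept when KO 2 was left out and lost when any 1 of the other 5 was. In RH HOMO, 1 of 20 rose and 0 fell by edgeR, against 0.578% and 0.994% of all genes, and 3 had an unadjusted p under 0.05, against 12.9%. The gene that rose was Irf1, a transcription factor gene induced by interferon gamma, with 76.0, 109 and 84.6 CPM in RH HOMO, against 38.0, 42.6 and 45.7 CPM in RH cohort WT. Irf1 changed by 1.10 ± 0.21 (SE, edgeR adjusted p = 0.0125), and was not called without RH cohort WT 1 or RH cohort WT 2. Nor was it called with RH cohort WT 1 moved to the KO cohort, as its batch tag has it (edgeR adjusted p = 0.0728), without RH cohort WT 1 and RH HOMO 2 (0.121), or with only the libraries compared (0.0738). Its RH HET libraries divided, with 47.9 and 41.4 CPM in RH HET 1 and 2 and 79.3 and 72.7 CPM in RH HET 3 and 4. Among the B cell factors, Tcf3 had 365, 365 and 319 CPM in RH HOMO, against 436, 487 and 444 CPM in RH cohort WT. Its log2 change of -0.38 ± 0.11 missed the threshold by edgeR (SE, adjusted p = 0.0928), but DESeq2 called it lower. Spi1, Irf8, Pax5 and Ebf1 were not called in KO, RH HET or RH HOMO, with log2 differences between -0.11 and 0.19. In RH HET 0 of the 20 genes were called by edgeR or DESeq2, with 2 at an unadjusted p under 0.05, against 7.18% of all genes.

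Among cofactors and relatives of the complex, few genes were called. Of 21 cofactor genes, 1, 4 and 5 had an unadjusted p under 0.05 in KO, RH HET and RH HOMO, against 12.1%, 7.18% and 12.9% of all genes. By edgeR or DESeq2, 0 of the 21 were called in KO and in RH HET, and 1 fell in RH HOMO, against 0.994% of all genes by edgeR. It was Smarca4, the ATPase of the SWI/SNF remodeller, with 688, 550 and 681 CPM in RH HOMO, against 846, 1008 and 884 CPM in RH cohort WT (log2 change -0.51 ± 0.10 SE, edgeR adjusted p = 0.0162). Without RH cohort WT 2 its adjusted p was 0.110 by edgeR, and with only the libraries compared it was 0.284. Crebbp differed by -0.14 ± 0.17 in KO, 0.36 ± 0.16 in RH HET and 0.01 ± 0.17 in RH HOMO (SE, edgeR adjusted p = 0.826, 0.668 and 0.985). Of 6 CREB family and X2 box genes, and of 8 further RFX and X box genes, 5 of which were tested, 0 were called by edgeR or DESeq2 in KO, RH HET and RH HOMO. Each list had 0 genes at an unadjusted p under 0.05 in KO and RH HET and 1 in RH HOMO, and their medians in KO were -0.05 and -0.09. Of 10 cell cycle genes with CCAAT boxes that NF-Y is known to bind, 0 were called by edgeR or DESeq2 in these comparisons, with 0, 2 and 3 at an unadjusted p under 0.05 in KO, RH HET and RH HOMO, and with medians of 0.07 in KO, -0.11 in RH HET and -0.08 in RH HOMO.

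The same RFX and NF-Y subunits serve NLRC5, the relative of CIITA that acts on MHC class I genes. Nlrc5 had 65.5, 65.0, 95.1 and 96.3 CPM in RH HET, and 89.6, 87.5 and 104 CPM in RH HOMO, against 58.2, 67.3 and 72.6 CPM in RH cohort WT. All RH HOMO libraries were above wild type, and RH HET divided in the same way as for Irf1. The log2 change in RH HOMO was 0.51 ± 0.15 (95% interval 0.19 to 0.83) but missed the threshold (edgeR adjusted p = 0.114), which it passed with no count filter (edgeR adjusted p = 0.0395). In KO, Nlrc5 had 60.6, 58.6 and 47.6 CPM, against 71.9, 71.6 and 64.4 CPM in KO cohort WT, with a log2 change of -0.32 ± 0.15 (SE, edgeR adjusted p = 0.417). Subtracting the KO effect from that in RH HOMO left 0.82 ± 0.22 for Nlrc5 (SE, edgeR adjusted p = 0.137). In that difference edgeR called 0 of the 9 genes of the class I arm and DESeq2 called 2, Nlrc5 and B2m, with 7 of 9 at an unadjusted p under 0.05, against 9.53% of all genes. Of the same 9 genes, 1 rose in RH HOMO by edgeR, against 0.578% of all genes: B2m, which encodes beta-2 microglobulin, by 0.61 ± 0.14 (SE, edgeR adjusted p = 0.0275). DESeq2 called 3 of 9 higher, B2m, H2-D1 and H2-K1, and 7 of 9 had an unadjusted p under 0.05, against 12.9% of all genes. By edgeR, B2m was not called without RH HOMO 2, RH cohort WT 2 or RH cohort WT 3, nor with RH cohort WT 1 moved to the KO cohort (adjusted p = 0.0725), without RH cohort WT 1 and RH HOMO 2 (0.0870), or with only the libraries compared (0.180). All 9 genes were positive there, with a median of 0.35, and in KO 0 were called by edgeR or DESeq2, the median was -0.10 and 0 had p under 0.05 before adjustment.

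Ciita sits on the chromosome that carries Crebbp, 6.27 Mb away from it, and its close neighbour Clec16a rose in both homozygous genotypes. Clec16a, a gene of autophagy and membrane traffic on the plus strand from 10545339 to 10744878, had 61.2, 60.3 and 59.3 CPM in KO, against 37.4, 34.1 and 38.8 CPM in KO cohort WT. It had 48.6, 40.3, 46.7 and 47.8 CPM in RH HET, and 53.9, 42.3 and 60.2 CPM in RH HOMO, against 32.6, 32.8 and 33.0 CPM in RH cohort WT. All KO, RH HET and RH HOMO libraries were above all libraries of their wild type, and groups were free of overlap for 25.4%, 6.49% and 15.4% of all genes. Log2 changes were 0.71 ± 0.11 in KO, 0.48 ± 0.11 in RH HET and 0.67 ± 0.11 in RH HOMO (SE, edgeR adjusted p = 0.00519, 0.246 and 0.00575), of which KO and RH HOMO were called. Without KO cohort WT 2 the adjusted p in KO was 0.0502 by edgeR, and DESeq2 also called Clec16a in RH HET. In RH HOMO its adjusted p with only the libraries compared was 0.192 by edgeR. Among the 8 neighbours listed, edgeR called 1 higher and 1 lower in KO, against 0.572% and 0.729% of all genes. In RH HOMO it called 1 higher and 0 lower, against 0.578% and 0.994%. The gene that fell in KO was Litaf, by 0.73 ± 0.14 on the log2 scale (SE, edgeR adjusted p = 0.0141), a call kept only without KO 2 when 1 library was left out. In RH HOMO Litaf differed by -0.45 ± 0.14 and was called lower by DESeq2 but not by edgeR (SE, adjusted p = 0.119). Dexi, which shares exonic bases with Ciita on the opposite strand and had 7.28% to 10.8% of its counts, differed by 0.05 ± 0.10 in KO (SE, edgeR adjusted p = 0.901). Of 187 tested genes within 10 Mb of Ciita, 2.14% were called in KO, 0% in RH HET and 3.74% in RH HOMO, against 1.30%, 0.0181% and 1.57% of all genes. Some of those calls were immunoglobulin lambda genes, namely Iglj2 in KO and Iglc2 and Iglj2 in RH HOMO.

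**Figure D5:**
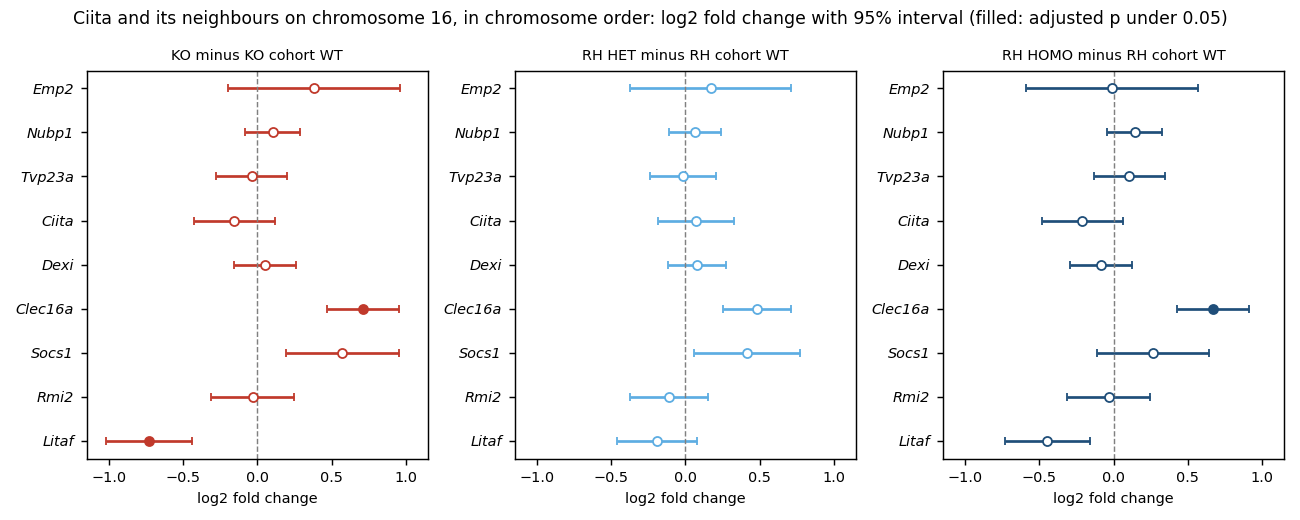
Log2 fold changes with 95% intervals of Ciita and 8 neighbouring genes in chromosome order, in KO, RH HET and RH HOMO, each minus its own wild type. Clec16a is called (filled) in KO at 0.71 and in RH HOMO at 0.67, whereas Ciita is not called in any panel.

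Markers of other cells that carry or lack class II were read beside these results. Plasma cell markers, which mark cells that shut Ciita off, summed to 1093 to 1104 CPM in KO, 1029 to 1114 CPM in RH HET and 1125 to 1174 CPM in RH HOMO, against 1150 to 1166 CPM in KO cohort WT and 1061 to 1153 CPM in RH cohort WT. Nearly all of that sum was Jchain, Slamf7, Mzb1 and Xbp1, with means of 400, 337, 225 and 131 CPM in KO. Prdm1, Sdc1 and Tnfrsf17 had means of 5.57, 1.39 and 0.0369 CPM in KO, against 4.76, 0.785 and 0.140 CPM in KO cohort WT. The share of plasma cells was not tested. Among the plasma cell markers, DESeq2 called Jchain lower in KO and edgeR called 0, with 1 of 6 tested at an unadjusted p under 0.05, against 12.1% of all genes. Macrophage markers summed to 14.5 to 17.3 CPM in KO, 19.1 to 24.7 CPM in RH HET and 18.7 to 29.9 CPM in RH HOMO, against 14.1 to 18.4 CPM in KO cohort WT and 16.3 to 23.3 CPM in RH cohort WT. Among them Adgre1 differed by 1.18 ± 0.29 in RH HET and 1.14 ± 0.31 in RH HOMO, not called by edgeR (SE, adjusted p = 0.335 and 0.0768) but called higher by DESeq2 in each. The dendritic cell marker Itgax, at 1.71, 2.36 and 1.64 CPM in RH HOMO, against 0.576, 0.583 and 0.461 CPM in RH cohort WT, was likewise called higher by DESeq2 and not by edgeR (adjusted p = 0.0776). Of the 5 dendritic cell markers tested, 2 were positive and 3 negative in RH HOMO, with a median of -0.06. T cell markers stayed at or under 6.01 CPM in sum in each library. Among them Thy1 rose in RH HOMO (2.16 ± 0.48 SE, edgeR adjusted p = 0.0282). Its means were low, at 1.324 CPM in RH HOMO and 0.3001 CPM in RH cohort WT. Thy1 was not called without RH HOMO 2, RH cohort WT 2 or RH cohort WT 3. Nor was it called with RH cohort WT 1 moved to the KO cohort (edgeR adjusted p = 0.0509). Of the 4 T cell markers tested, 1 was positive and 3 negative in RH HOMO, with a median of -0.48. Cd3e and Cd3g, which encode chains of the T cell receptor complex, were at 0 in KO, and Cd3e also in RH HET and RH cohort WT. In KO, 3 of the 4 tested T cell markers were positive and 1 negative, with a median of 0.83. Of these 4, 0 were called by edgeR or DESeq2 in KO and 1 had an unadjusted p under 0.05, against 12.1% of all genes. Follicular naive B cell markers summed to 659 to 815 CPM in KO, 724 to 847 CPM in RH HET and 647 to 737 CPM in RH HOMO, against 755 to 851 CPM in KO cohort WT and 615 to 902 CPM in RH cohort WT. Of 8 light zone markers, 0 were called in KO by edgeR or DESeq2, with 2 at an unadjusted p under 0.05, against 12.1% of all genes. Cd86, a costimulatory ligand gene, rose in RH HOMO by 0.39 ± 0.09 (SE, edgeR adjusted p = 0.0496), against 0.578% of all genes. With 1 library left out, that call was kept only without RH HOMO 2 or RH cohort WT 3. It was lost with RH cohort WT 1 moved to the KO cohort (edgeR adjusted p = 0.330). DESeq2 size factors, no count filter and only the libraries compared also lost it (edgeR adjusted p up to 0.450). Of 10 germinal centre markers, Rgs13 fell in KO (-1.58 ± 0.23) and Mef2b fell in RH HOMO (-0.57 ± 0.11; SE, edgeR adjusted p = 0.00223 and 0.0143), against 0.729% and 0.994% of all genes that fell. Mef2b was not called without RH cohort WT 1 or with that library moved to the KO cohort (edgeR adjusted p = 0.319). Nor did edgeR call Mef2b without RH cohort WT 1 and RH HOMO 2, or with only the libraries compared. DESeq2 also called Fas lower in KO and Rgs13 lower in RH HOMO, and 4 and 5 of the 10 had an unadjusted p under 0.05 in KO and RH HOMO, against 12.1% and 12.9% of all genes. The part of these cells in the values of Ciita and its partners was not tested.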

How the data were processed

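The authors deposited 1 table of unnormalized read counts, with 16 libraries as columns and gene symbols as rows. Tools named in the submitters' processing notes are featureCounts, HISAT2 and CASAVA 1.8, with build mm10, and library preparation used TruSeq RNA v2 reagents, per the labels' protocols. Strand setting and annotation: not given in the sources used here. Groups came from the titles, since several sample tags are shifted against their values. Replicate numbers follow accession order and pair nothing. Separate mice are not stated, so p-values cover library-to-library spread, which may be technical. Replicate pairs differed beyond sampling noise (chi-square per degree of freedom 16.4 to 205), so each library counted once.

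Counts were tested in R 4.3.3 with edgeR 4.0.16 (filterByExpr, TMM, 5 group means over 16 libraries, 11 residual degrees of freedom, quasi-likelihood test, Benjamini-Hochberg over all 16606 tested genes). SE is the log2 change divided by the root of F, and intervals are at 95%. Positions and exon lengths came from GENCODE M21 on GRCm38, the assembly of mm10. Correlations used log2 CPM with a prior count of 2 and 100000 permutations. The members and the 15 gene lists were chosen with earlier results of these data known. The text names all 7 members, 4 class II chains, Crebbp, Nlrc5, up to 3 called genes per list and the 5 genes most like Ciita and like Rfx5, of which 1 is not reported here. Alternatives were DESeq2 1.42.0 size factors or test, no count filter, only the libraries compared, RH cohort WT 1 in the KO cohort, leaving out RH cohort WT 1 with RH HOMO 2, and leaving out each library.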

Additional observations from a re-analysis of the deposited data

How the results depend on the processing

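The count of members called was 0 in KO, RH HET, RH HOMO and the difference of effects under each alternative run, and the lowest adjusted p of any member was 0.180 in KO, 0.419 in RH HET, 0.155 in RH HOMO and 0.413 in the difference of effects. Signs of small changes did turn. With RH cohort WT 1 moved to the KO cohort, Rfx5 was at 0.0343 in KO and Nfya, Nfyb and Nfyc at 0.0448, 0.0328 and -0.00374 in RH HOMO, with Rfx5 at -0.18 in the difference of effects. Without RH cohort WT 1 and RH HOMO 2, Nfyb was at 0.00389 in RH HET, Rfx5, Nfya and Nfyb at 0.0237, 0.17 and 0.0381 in RH HOMO, and Ciita and Rfxank at 0.0403 and -0.0361 in the difference of effects. Leaving out 1 library gave log2 ranges that crossed 0 for Rfxap (-0.0398 to 0.21) in KO, Nfyb (-0.15 to 0.00407) and Nfyc (-0.00563 to 0.0882) in RH HET, and Rfx5 (-0.18 to 0.11), Nfya (-0.14 to 0.0884), Nfyb (-0.11 to 0.0426) and Nfyc (-0.0169 to 0.0773) in RH HOMO. In the difference of effects they crossed 0 for Ciita (-0.22 to 0.0796), Rfx5 (-0.0912 to 0.20), Rfxap (-0.0179 to 0.24), Rfxank (-0.0362 to 0.0974), Nfya (-0.031 to 0.19) and Nfyb (-0.0344 to 0.12). The correlation of Ciita with class II turned to 0.23 without RH cohort WT 1 and RH HOMO 2, to 0.15 without the libraries farthest from the median, and to 0.83 in the KO cohort. The cause of these turns was not tested. The class II count in KO was 5 to 7 under the other settings and 0 to 5 without 1 library, a check added after the data were seen.

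The number of genes called over the whole table depended on the setting. The 216 in KO became 537 by DESeq2, 699 with only the libraries compared, 461 without RH cohort WT 1 and RH HOMO 2, and 38 to 87 without 1 library. The 3 in RH HET became 51 by DESeq2, 19 with no filter, 0 with only the libraries compared (1054 at an unadjusted p under 0.05), 1 with RH cohort WT 1 moved, 6 without RH cohort WT 1 and RH HOMO 2, and 0 to 5 without 1 library. The 261 in RH HOMO became 654 by DESeq2, 0 with only the libraries compared (1236 at an unadjusted p under 0.05), 102 with RH cohort WT 1 moved, and 115 to 251 without 1 library. The 40 in the difference of effects became 222 by DESeq2, 109 with no filter, 10 with only the libraries compared, 15 with RH cohort WT 1 moved, and 6 to 67 without 1 library. No paired analysis was possible because the labels give no replicate numbers shared between groups.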
